A study of Homo sapiens with 12 samples.

Results

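The 36 genes described here code for the enzymes of glycolysis, for the transporters that carry glucose in and lactate out, and for proteins whose transcripts are induced when oxygen falls. The list is defined by gene symbol alone, and its members were matched by Ensembl identifier in a table of 62262 genes. All 36 were found, and all 36 were among the 19784 genes with enough counts to be tested. The cells came from 1 human podocyte line, conditionally immortalized; podocytes are epithelial cells that wrap the capillaries of the kidney glomerulus. Every group carried the line's temperature-sensitive SV40 T gene, and differentiation took place at a temperature where its product is inactive. The 12 libraries form 4 groups of 3: the solvent DMSO alone, cyclosporine A (abbreviated CSA), tacrolimus (abbreviated TAC) and voclosporin (abbreviated VCS), each drug at 100 nM and each group for 24 h. All 3 compounds inhibit calcineurin, a phosphatase through which calcium signals switch on NFAT transcription factors. The design asks how each inhibitor alters transcription in these cells. The genes below show the transcripts of sugar breakdown and of the oxygen-sensing programme, not the activity of either.

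In glycolysis a molecule of glucose is phosphorylated, split and oxidized to pyruvate, and in cells that make lactate the pyruvate is reduced by lactate dehydrogenase and exported. Hypoxia-inducible factors (HIFs) pair an oxygen-labile alpha subunit, HIF1A or EPAS1, with a stable partner; prolyl hydroxylases of the EGLN family mark the alpha subunit for destruction when oxygen is present. When the alpha subunit is spared, HIF binds short DNA motifs with the core ACGTG or GCGTG and raises transcripts of glycolytic enzymes, glucose transporters and other members of the list. Podocytes are known to draw on glycolysis for energy. Since HIF1A protein is set mainly after translation, transcripts of the alpha subunits do not measure HIF activity.

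Library totals ran from 28808213 to 36077072 counts, of which the 36 genes took 1.44% to 1.68%. Levels are given as CPM, computed with edgeR from counts and scaled library sizes; between genes they are compared only per kilobase of annotated exons. Mitochondrially encoded transcripts took 5.82% to 8.12% of counts in the libraries numbered 1 and 2 and 9.68% to 13.4% in the 4 libraries numbered 3. Of 12 podocyte markers, 8 averaged over 1 CPM, among them CD2AP, SYNPO, NES, PODXL and PLA2R1, while NPHS1, PTPRO and CLIC5 had 1 to 14 counts in a library. The 12 markers summed to 213 to 295 CPM. The 6 parietal epithelial markers, led by KRT19 and KRT8, summed to 2618 to 3095 CPM. The 5 hepatocyte markers, almost all of it ALB, summed to 129 to 318 CPM, the 7 airway markers to 12.3 to 55.7 CPM, and the 6 endothelial markers to 2.09 to 9.36 CPM. Proximal tubule markers summed to 18.1 to 31.8 CPM, mesangial or fibroblast markers to 168 to 228 CPM and immune markers, almost all CD68, to 56.6 to 90.2 CPM. In bulk RNA, fewer cells of a type and less RNA per cell cannot be told apart.

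The HIF core motif was searched in the 250 bases before the first-listed RefSeq start site of each gene (GRCh38.p14), as ACGTG or GCGTG on either strand; a palindromic CACGTG counts on both strands. Promoters were matched for 33 of the 36 genes, all but NDRG1, BNIP3L and SLC2A3, and 22 of the 33 (66.7%) held a match, against 43.1% of 27305 promoters of the same length. The promoters below are a selection from the genes described in the comparisons of CSA with TAC and of replicate numbers. Among the genes of those comparisons that are not shown, SLC16A3 and PGAM1 had 0 matches and PFKL and PFKFB3 had 1 each. Capitals mark the matches on the strand shown, 5′ to 3′.
BNIP3: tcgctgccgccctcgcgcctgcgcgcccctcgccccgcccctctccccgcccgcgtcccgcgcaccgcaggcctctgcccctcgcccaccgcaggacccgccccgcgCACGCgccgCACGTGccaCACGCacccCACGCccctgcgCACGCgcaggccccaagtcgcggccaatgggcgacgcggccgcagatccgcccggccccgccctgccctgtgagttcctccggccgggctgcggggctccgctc
LDHA: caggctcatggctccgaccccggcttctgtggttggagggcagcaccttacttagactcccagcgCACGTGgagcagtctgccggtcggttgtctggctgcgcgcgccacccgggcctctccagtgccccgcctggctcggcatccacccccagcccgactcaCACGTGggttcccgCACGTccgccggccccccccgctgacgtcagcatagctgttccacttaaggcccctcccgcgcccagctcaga
KDM3A: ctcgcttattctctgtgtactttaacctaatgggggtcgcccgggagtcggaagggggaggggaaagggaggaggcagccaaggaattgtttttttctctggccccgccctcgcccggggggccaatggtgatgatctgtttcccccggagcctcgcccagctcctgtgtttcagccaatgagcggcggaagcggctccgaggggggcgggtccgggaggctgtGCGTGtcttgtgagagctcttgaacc
PDK1: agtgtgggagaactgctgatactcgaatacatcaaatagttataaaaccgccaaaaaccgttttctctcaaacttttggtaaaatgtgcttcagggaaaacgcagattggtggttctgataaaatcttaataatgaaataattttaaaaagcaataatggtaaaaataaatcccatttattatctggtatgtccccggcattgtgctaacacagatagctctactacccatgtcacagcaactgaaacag
PFKFB4: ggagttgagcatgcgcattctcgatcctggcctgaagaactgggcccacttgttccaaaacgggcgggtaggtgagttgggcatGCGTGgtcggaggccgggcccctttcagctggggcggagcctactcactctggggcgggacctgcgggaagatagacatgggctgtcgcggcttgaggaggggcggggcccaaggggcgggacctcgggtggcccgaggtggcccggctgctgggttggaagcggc
ADM: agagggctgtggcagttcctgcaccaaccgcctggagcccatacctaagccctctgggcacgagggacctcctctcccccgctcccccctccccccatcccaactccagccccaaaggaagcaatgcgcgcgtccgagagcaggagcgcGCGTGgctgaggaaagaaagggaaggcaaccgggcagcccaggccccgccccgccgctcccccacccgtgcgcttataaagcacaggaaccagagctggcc
The BNIP3 window is chr10:131981924-131982173 on the minus strand with 6 matches, and the LDHA window is chr11:18394313-18394562 on the plus strand with 5. The KDM3A window is chr2:86441121-86441370 (plus strand, 1 match) and that of PDK1 is chr2:172555123-172555372 (plus strand, 0 matches). PFKFB4 is read from chr3:48556804-48557053 on the minus strand and ADM from chr11:10304823-10305072 on the plus strand, with 1 match each. A match is a string of letters in this window, and none of these data show what binds there.

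Transcripts of neither glycolysis nor the hypoxia-induced set shifted detectably from DMSO with any of the 3 inhibitors at 100 nM and 24 h. In edgeR's quasi-likelihood test, with p adjusted over all 19784 genes, 0 of the 36 genes passed the threshold of 0.05 against DMSO. The median log2 difference of the 36 genes from DMSO was 0.02 in CSA, 0.05 in TAC and -0.03 in VCS, beside -0.00, -0.00 and 0.00 over all genes. In CSA, 19 genes lay above and 17 below DMSO; in TAC 23 lay above and 13 below, and in VCS 16 above and 20 below, where 49.0%, 49.0% and 50.9% of all genes lay above. With each library left out in turn, the median ran from -0.03 to 0.09 in CSA, from 0.01 to 0.10 in TAC and from -0.07 to 0.06 in VCS, so its sign was not stable in CSA or VCS. The 3 comparisons share the DMSO libraries. In TAC the summed parietal epithelial markers were 2618 to 2755 CPM against 2895 to 3095 CPM in DMSO, the hepatocyte markers 269 to 318 CPM against 143 to 191 CPM, and the proximal tubule markers 26.3 to 27.1 CPM against 19.5 to 23.6 CPM. Airway markers summed to 12.3 to 20.2 CPM in CSA and 15.5 to 20.9 CPM in TAC against 21.1 to 42.3 CPM in DMSO. None of these ranges overlapped DMSO, and their part in the differences from DMSO was not tested.

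Few genes passed anywhere in the transcriptome. The share of all genes with an adjusted p under 0.05 was 0.0101% for CSA, 0.0354% for TAC and 0.00505% for VCS. The smallest adjusted p among the 36 genes was 0.939 in CSA, 0.920 in TAC and 0.963 in VCS. At an unadjusted p under 0.05 stood 2 of the genes in CSA (5.56%, against 3.75% of all genes), 2 in TAC (5.56%, against 4.65%) and 0 in VCS (against 3.27%). In the mean of the 3 inhibitors against DMSO, 0 of the 36 genes passed (0.0101% of all genes did) and 1 had an unadjusted p under 0.05 (2.78%, against 3.66%). In the test for any difference among the 4 groups 0 passed (0.0505% of all genes did) and 1 had an unadjusted p under 0.05 (against 3.90%). DESeq2 called 0 of the 36 genes in each of these 5 tests. Nothing in the labels says whether replicates were separate cultures, so these p-values measure only the spread between the libraries.

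The intervals, from the fit on group alone, show what size of change that fit leaves room for. Against DMSO, the 95% interval of the fold change lay within 1.5-fold in either direction for 30 of the 36 genes with CSA, 29 with TAC and 30 with VCS. The genes with wider intervals in all 3 comparisons were PFKFB4, NDRG1, ALDOC, CA9 and EGLN3. The last 3 had low counts, and the first 2 varied between replicate numbers, as described below. EPAS1 also had a wider interval in CSA and VCS, and PFKFB3 and ADM in TAC. With replicate number also in the model, some of these intervals came within 1.5-fold. In CSA they ran, in log2, from -0.33 to 0.14 for PFKFB4, from -0.10 to 0.38 for NDRG1 and from 0.005 to 0.50 for EPAS1. That of ADM in TAC ran from -0.38 to -0.07. Those of ALDOC, CA9 and EGLN3 in CSA and of PFKFB3 in TAC (0.19 to 0.65) stayed wider.

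**Figure D1:**
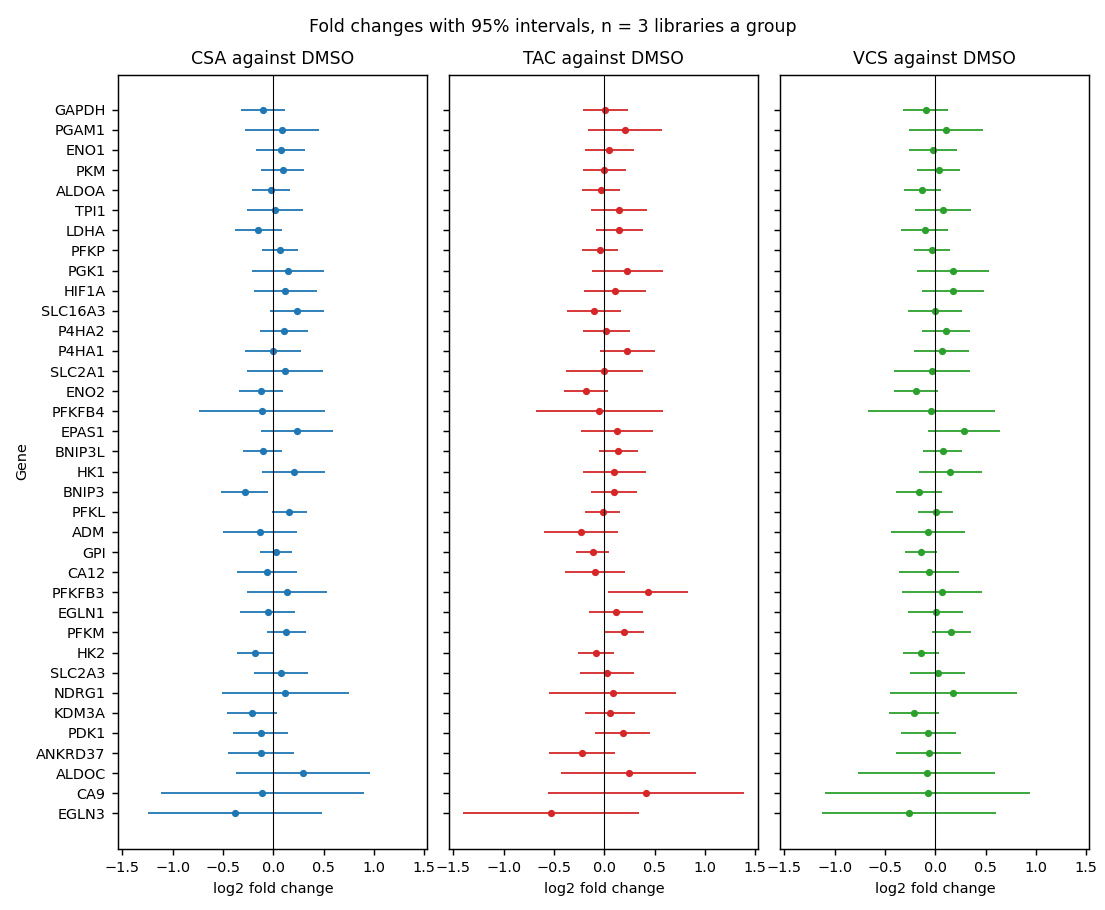
Log2 fold change of each of the 36 genes (rows, ordered by level per kilobase) in CSA, TAC and VCS against DMSO (3 libraries a group). Points are edgeR's estimate and bars a 95% interval derived from its test statistic. Most intervals cross 0 and stay short; those of ALDOC, CA9, EGLN3, NDRG1 and PFKFB4 are the wide ones.

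Levels spanned more than 4 orders of magnitude per kilobase of exon, from GAPDH at 1257 CPM per kb to EGLN3 at 0.0456 CPM per kb (means of 12 libraries). GAPDH was followed by PGAM1 at 309.5, ENO1 at 306, PKM at 285, ALDOA at 242, TPI1 at 195 and LDHA at 192 CPM per kb. PFKP, at 123 CPM per kb, and PGK1, at 80.7 CPM per kb, came next. The plot of levels shows how close the 12 libraries were for each gene beside that range. The highest library was 1.15 times the lowest for ALDOA and 2.98 times for CA9; the ratio was under 1.5 for 22 of the 36 genes and over 2 for 6.

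**Figure D2:**
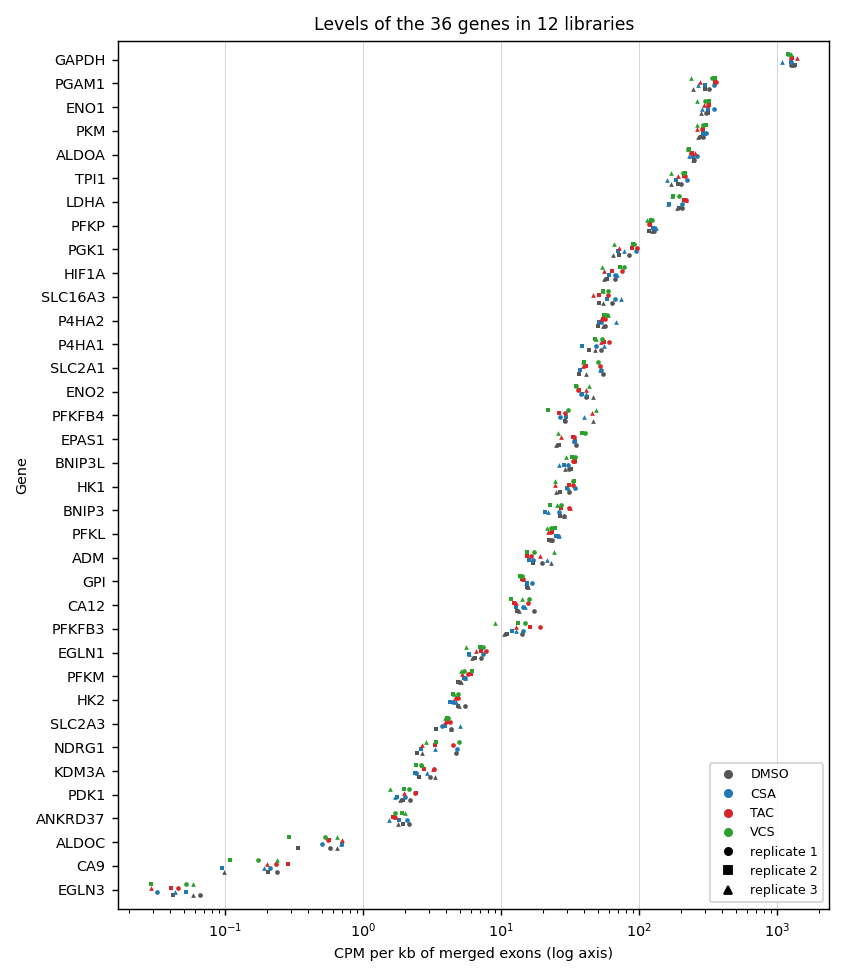
Level of each of the 36 genes in each of the 12 libraries, as CPM per kb of merged exons on a log axis; colour gives the group and marker shape the replicate number. GAPDH stands at the top, and ALDOC, CA9 and EGLN3 at the bottom scatter most.

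Glucose enters through the GLUT transporters and is trapped by hexokinase. SLC2A1 (GLUT1, chr1:42925375-42959176) was at 256, 173 and 195 CPM in DMSO, 251, 177 and 247 in CSA, 244, 195 and 185 in TAC and 237, 189 and 183 in VCS. Its 4 groups overlapped, and the libraries numbered 1 were the highest in every group. SLC2A3 (GLUT3) was at 26.5, 20.8 and 26.6 CPM in DMSO, 22.8, 23.9 and 30.8 in CSA, 26.2, 25.1 and 24.1 in TAC and 25.5, 25.1 and 24.3 in VCS, with overlapping groups, and the SLC2A1 level per kilobase was 10.9 times that of SLC2A3. The differences from DMSO lay between -0.03 and 0.11 on the log2 scale for SLC2A1 and between 0.02 and 0.07 for SLC2A3.

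HK1, the housekeeping hexokinase, was at 197, 167 and 156 CPM in DMSO, 217, 189 and 193 in CSA, 208, 194 and 155 in TAC and 209.8, 212 and 154 in VCS. Its groups overlapped, and the library numbered 3 was the lowest in 3 of 4 groups. HK2, the inducible and insulin-responsive hexokinase (chr2:74833981-74893359), was at 32.9, 29.6 and 30.0 CPM in DMSO, 27.1, 25.6 and 28.6 in CSA, 29.4, 29.6 and 28.1 in TAC and 29.4, 27.2 and 27.4 in VCS. The 3 DMSO libraries were all above the 9 inhibitor libraries, by so narrow a margin in TAC that its highest library and the lowest DMSO library both round to 29.6 CPM. The HK2 log2 difference was -0.19 (SE 0.08) in CSA, -0.09 (SE 0.08) in TAC and -0.14 (SE 0.08) in VCS, with unadjusted p = 0.0419 and edgeR adjusted p = 0.939 in CSA. Per kilobase HK1 was 6.25 times HK2. The log2 ratio of HK2 to HK1 was -2.43 ± 0.10 in DMSO and -2.83 ± 0.12 in CSA (SD, n = 3), with no overlap of the libraries; it was -2.61 ± 0.19 in TAC and -2.71 ± 0.24 in VCS.

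Past hexokinase, GPI turns glucose 6-phosphate into fructose 6-phosphate and was at 164, 164 and 167 CPM in DMSO, 177, 165 and 162 in CSA, 153, 150.0 and 154 in TAC and 152, 147 and 149.8 in VCS. It was the steadiest of the 36 genes: its SD within groups was 0.04 log2 units, at the percentile 0.8 of the 1000 genes nearest in level. All TAC and all VCS libraries lay below the lowest DMSO library, with log2 differences of -0.12 (SE 0.07) in TAC and -0.14 (SE 0.07) in VCS. Neither passed the test.

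Phosphofructokinase commits the sugar to glycolysis and has a liver, a muscle and a platelet form. PFKP, the platelet form, dominated, at 5.23 times the PFKL level per kilobase, and PFKL was 4.36 times PFKM. PFKL was at 210.0, 199 and 204 CPM in DMSO, 231, 221 and 233 in CSA, 203, 209 and 194 in TAC and 205, 217 and 193 in VCS. All 3 CSA libraries were above all others, with log2 differences of 0.16 (SE 0.08) from DMSO and 0.18 (SE 0.08) from TAC. PFKM (chr12:48105139-48146404) was at 35.9, 35.7 and 37.5 CPM in DMSO, 40.2, 39.0 and 39.7 in CSA, 42.2, 44.6 and 38.3 in TAC and 39.2, 44.8 and 37.5 in VCS. The 9 inhibitor libraries were all above the 3 DMSO libraries, though the lowest VCS and the highest DMSO library both round to 37.5 CPM. The log2 difference was 0.13 (SE 0.09) in CSA, 0.20 (SE 0.09) in TAC and 0.16 (SE 0.09) in VCS. For TAC the unadjusted p was 0.0461 and edgeR's adjusted p 0.920. In the mean of the 3 inhibitors PFKM had the only unadjusted p under 0.05 of the 36 genes, at a log2 difference of 0.16 (SE 0.07). PFKM overlaps SENP1 on the opposite strand, and whether the counting used strand is not stated.

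The bifunctional PFKFB enzymes make and remove fructose 2,6-bisphosphate, a potent activator of phosphofructokinase. PFKFB3 (chr10:6144934-6254644) was at 86.1, 67.3 and 64.0 CPM in DMSO, 87.5, 73.1 and 78.0 in CSA, 116, 98.7 and 77.7 in TAC and 90.7, 81.5 and 55.5 in VCS. Its TAC libraries ranged above DMSO but overlapped it, since TAC replicate 3 was below DMSO replicate 1. The log2 difference was 0.43 (SE 0.18) in TAC, the largest of the 36 genes upward against DMSO, with unadjusted p = 0.0367 and edgeR adjusted p = 0.920; it was 0.14 (SE 0.18) in CSA and 0.07 (SE 0.18) in VCS. PFKFB4 (chr3:48517684-48562015) was at 176, 178 and 282 CPM in DMSO, 163, 179 and 244 in CSA, 177, 161 and 276 in TAC and 185, 134 and 299 in VCS. In each group its library numbered 3 stood far above the others, and the groups overlapped throughout.

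ALDOA, the main aldolase, was at 982, 982 and 966 CPM in DMSO, 1023, 959.9 and 897 in CSA, 932, 938 and 992 in TAC and 889, 902 and 887 in VCS. The VCS libraries all lay below those of DMSO and TAC, with a log2 difference from DMSO of -0.13 (SE 0.09). Per kilobase it was 444 times ALDOC, the brain form, which had 28 to 70 counts in a library. TPI1, which interconverts the triose phosphates, was at 538, 516 and 459.8 CPM in DMSO, 596, 500.3 and 432 in CSA, 581, 573 and 516 in TAC and 558, 576 and 463 in VCS, with the library numbered 3 lowest in every group. GAPDH, which oxidizes glyceraldehyde 3-phosphate, was at 3744, 3982 and 3894 CPM in DMSO, 3784, 3763 and 3243 in CSA, 3729, 3824 and 4154 in TAC and 3571, 3546 and 3742 in VCS. Here too the VCS libraries were all below those of DMSO; the log2 difference was -0.10 (SE 0.10) in VCS, -0.11 (SE 0.10) in CSA and 0.01 (SE 0.10) in TAC. Its 95% intervals lay within 1.5-fold in every comparison of groups.

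PGK1, which makes the first ATP of the pathway (chrX:77910739-78129296), was at 465, 393 and 354 CPM in DMSO, 523, 389 and 428 in CSA, 535, 489 and 396 in TAC and 509.5, 495 and 361 in VCS. Its groups overlapped, and the libraries numbered 1 were the highest in each group. PGAM1 (chr10:97426160-97433441) was at 824, 769.9 and 633 CPM in DMSO, 901, 772 and 684 in CSA, 933, 915 and 711 in TAC and 873, 914 and 608 in VCS; the library numbered 3 was the lowest in all 4 groups. ENO1 ranged from 1388 to 1845 CPM, and ENO2, the neuronal enolase and a HIF target, was at 177, 178 and 197 CPM in DMSO, 163, 166 and 176 in CSA, 154, 157 and 175 in TAC and 149, 149.9 and 184 in VCS. The DMSO libraries of ENO2 were all above those of CSA and TAC, with log2 differences of -0.13 (SE 0.10) and -0.18 (SE 0.10); VCS overlapped DMSO at -0.19 (SE 0.10).

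PKM, which makes pyruvate, was at 2499, 2389 and 2275 CPM in DMSO, 2614, 2500.5 and 2518 in CSA, 2447, 2468 and 2247 in TAC and 2486, 2605 and 2242 in VCS. All CSA libraries of PKM lay above those of DMSO and TAC, at a log2 difference from DMSO of 0.09 (SE 0.10). LDHA, which reduces pyruvate to lactate (chr11:18394388-18408425), was at 1272, 1203 and 1158 CPM in DMSO, 1259.9, 1015 and 999 in CSA, 1352, 1319 and 1350.2 in TAC and 1214, 1085 and 1073 in VCS. TAC was the high group, its lowest library above every other library. SLC16A3 (MCT4), the lactate exporter, was at 574, 458 and 489 CPM in DMSO, 602, 523 and 664 in CSA, 531, 463 and 419 in TAC and 538, 494 and 489 in VCS; CSA held the highest library and TAC the lowest, but the groups overlapped. PDK1, a kinase of pyruvate dehydrogenase, was at 32.3, 28.9 and 27.5 CPM in DMSO and 30.0, 26.0 and 25.4 in CSA. It was at 35.5, 35.9 and 29.3 in TAC and 31.7, 29.2 and 23.4 in VCS, and its groups overlapped.

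Neither HIF alpha subunit had groups that stood apart. HIF1A (chr14:61695513-61748259) was at 342, 300.4 and 286 CPM in DMSO, 344, 309.6 and 355 in CSA, 384, 328 and 288 in TAC and 396, 375 and 276 in VCS, and EPAS1 (HIF-2 alpha, chr2:46293667-46386703) was at 255, 193 and 182 CPM in DMSO, 246, 249.6 and 245 in CSA, 247, 241 and 198 in TAC and 295, 282 and 188 in VCS. Per kilobase HIF1A was 2.01 times EPAS1. Against DMSO the log2 difference of HIF1A was 0.12 (SE 0.14) in CSA, 0.11 (SE 0.14) in TAC and 0.17 (SE 0.14) in VCS. That of EPAS1 was 0.24 (SE 0.17), 0.12 (SE 0.17) and 0.28 (SE 0.17) in the same order.

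Among the hydroxylases that turn HIF off, EGLN1 was at 52.2, 47.3 and 44.8 CPM in DMSO, 53.4, 42.4 and 42.7 in CSA, 56.7, 51.9 and 47.8 in TAC and 53.3, 50.9 and 40.2 in VCS, with overlapping groups. EGLN3, whose transcript rises strongly when HIF is active, was near the floor, at 7 to 16 counts in a library and 0.486, 0.308 and 0.429 CPM in DMSO, 0.235, 0.382 and 0.319 in CSA, 0.333, 0.297 and 0.215 in TAC and 0.384, 0.212 and 0.429 in VCS. Carbonic anhydrase 9, a standard marker of hypoxic cells, was as low: CA9 had 5 to 16 counts in a library and stood at 0.395, 0.338 and 0.165 CPM in DMSO, 0.353, 0.159 and 0.319 in CSA, 0.393, 0.475 and 0.338 in TAC and 0.288, 0.182 and 0.393 in VCS. Differences of EGLN3 and CA9 between groups were not measurable at this depth beyond wide intervals, from -1.40 to 0.35 for EGLN3 and -0.56 to 1.39 for CA9 in TAC against DMSO (log2). CA12, another carbonic anhydrase, was 78.0 times CA9 per kilobase, at 126, 95.4 and 98.3 CPM in DMSO, 105, 92.9 and 108 in CSA, 115, 91.2 and 94.3 in TAC and 116, 86.6 and 104 in VCS, with overlapping groups.

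BNIP3 and BNIP3L are mitochondrial proteins that mark mitochondria for autophagy in hypoxia. BNIP3 (chr10:131966455-131982013) was at 152, 141 and 152 CPM in DMSO, 139, 111 and 116 in CSA, 164, 144 and 168 in TAC and 144, 120.0 and 134 in VCS. All CSA libraries were below the lowest DMSO library, while TAC overlapped DMSO. The log2 difference from DMSO was -0.29 (SE 0.11) in CSA, with unadjusted p = 0.0195 and edgeR adjusted p = 0.939; it was 0.09 (SE 0.11) in TAC and -0.16 (SE 0.11) in VCS. In the test for any difference among the 4 groups BNIP3 had the smallest p of the 36 genes, 0.0166 unadjusted, with an edgeR adjusted p of 0.991. BNIP3L was at 134, 138 and 124 CPM in DMSO, 131, 122 and 114 in CSA, 144, 148 and 144 in TAC and 148, 141 and 127 in VCS, with every TAC library above every DMSO library.

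ADM, the vasodilator peptide adrenomedullin (chr11:10304680-10307397), was at 53.5, 46.2 and 62.5 CPM in DMSO, 45.9, 43.5 and 58.2 in CSA, 44.5, 41.6 and 52.2 in TAC and 47.0, 42.0 and 65.2 in VCS, highest in the library numbered 3 of every group. NDRG1, a stress-response protein and hypoxia marker, was at 46.5, 24.1 and 26.2 CPM in DMSO, 47.0, 25.9 and 32.4 in CSA, 43.9, 32.4 and 26.3 in TAC and 48.6, 33.2 and 27.8 in VCS; the library numbered 1 was the highest in each group. ANKRD37, a small HIF target, was at 5.50, 5.04 and 4.62 CPM in DMSO, 5.32, 4.68 and 3.94 in CSA, 4.29, 4.27 and 4.42 in TAC and 4.35, 4.97 and 5.15 in VCS, and its TAC libraries were all below its DMSO libraries at a log2 difference of -0.22 (SE 0.15). KDM3A, a histone H3 lysine 9 demethylase, was at 40.9, 34.2 and 44.2 CPM in DMSO, 32.5, 31.8 and 38.7 in CSA, 43.8, 37.2 and 43.3 in TAC and 35.2, 32.2 and 35.8 in VCS. Its VCS libraries were all below its TAC libraries and overlapped the others. P4HA1 and P4HA2, the collagen prolyl hydroxylases, ranged from 118 to 186 and from 429 to 580.5 CPM.

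Taking all 36 genes, the libraries of an inhibitor did not overlap those of DMSO for 6 genes in CSA (16.7%, against 9.87% of all genes), 8 in TAC (22.2%, against 12.4%) and 5 in VCS (13.9%, against 7.48%). In CSA, PFKL, PFKM and PKM lay above DMSO and HK2, ENO2 and BNIP3 below. In TAC, PFKM, LDHA, BNIP3L and P4HA1 lay above and HK2, GPI, ENO2 and ANKRD37 below. In VCS, PFKM lay above and HK2, GPI, ALDOA and GAPDH below. HK2 below and PFKM above DMSO were found in all 3, and the 3 share the DMSO libraries. The share of all genes so placed in all 3 was not computed. Among the members named in this paragraph, the largest log2 difference was -0.29, that of BNIP3 in CSA.

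CSA is a cyclic peptide and TAC a macrolide. Fitted on group alone, the comparison of the pair gave the most genes with a small unadjusted p, though 0 passed. Of those, BNIP3, BNIP3L, LDHA, PDK1 and KDM3A had lower values in CSA than in TAC, and the lactate exporter SLC16A3 and the phosphofructokinase PFKL had higher ones. At an unadjusted p under 0.05 stood 7 of the 36 genes (19.4%), against 7.52% of all genes. With adjusted p, 0 of 36 passed in that fit (0.0303% of all genes did), and the smallest was 0.494. DESeq2 on group alone also called 0. With replicate number also in the edgeR model 1 of 36 passed (2.78%), BNIP3. That model also called more of all genes in this comparison, and their count is given at the end. In that model 11 had an unadjusted p under 0.05 (30.6%, against 15.9% of all genes). Over all 36 genes the median log2 difference of CSA from TAC was 0.02, with 20 above and 16 below 0, and without the 4 libraries numbered 3 the median was -0.058.

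BNIP3 had the smallest p of these 7. Fitted on group alone, its log2 difference of CSA from TAC was -0.38 (SE 0.11), with an unadjusted p of 0.00364 and an edgeR adjusted p of 0.494. With replicate number also in the model it was -0.38 (SE 0.07), with an edgeR adjusted p of 0.0446. The labels do not say that a number pairs the libraries. The 3 CSA libraries of BNIP3, between 111 and 139 CPM, all lay below the 3 TAC libraries, between 144 and 168 CPM. On group alone, the log2 difference was -0.30 (SE 0.11) for LDHA, -0.31 (SE 0.13) for PDK1, -0.27 (SE 0.12) for KDM3A and -0.24 (SE 0.09) for BNIP3L. In the other direction it was 0.34 (SE 0.12) for SLC16A3 and 0.18 (SE 0.08) for PFKL. The libraries of CSA and TAC did not overlap for 7 of the 36 genes (19.4%, against 13.6% of all genes): LDHA, BNIP3 and BNIP3L were above in TAC, and GPI, PFKL, PFKP and PKM were below. The 95% interval lay within 1.5-fold for 28 of the 36 genes. The summed parietal epithelial markers were 2939 to 2999.9 CPM in CSA and 2618 to 2755 CPM in TAC, and the hepatocyte markers were 134 to 302 and 269 to 318 CPM; their part in these differences was not tested.

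**Figure D3:**
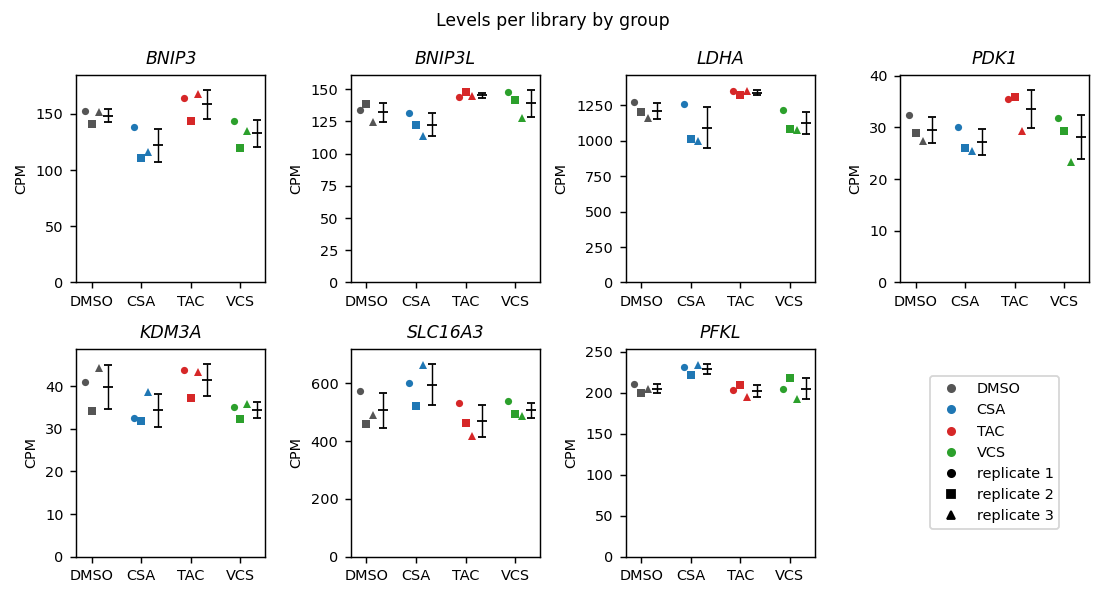
CPM per library (points, shape by replicate number) for the 7 genes with an unadjusted p under 0.05 between CSA and TAC, by group, with black bars for the mean and SD of 3 libraries. BNIP3, BNIP3L and LDHA show CSA entirely below TAC, PFKL shows it above, and PDK1, KDM3A and SLC16A3 overlap.

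VCS is an analog of the cyclic peptide CSA, and both were given at the same dose for the same time. Between them 0 of the 36 genes passed the adjusted threshold (0.0101% of all genes did; DESeq2 also called 0 of the 36), with a smallest adjusted p of 1.00. GPI alone had an unadjusted p under 0.05, which is 2.78% of the genes against 2.54% of all, at a log2 difference of CSA from VCS of 0.17 (SE 0.07). The 95% interval lay within 1.5-fold for 31 of the 36 genes, all but PFKFB4, ALDOC, CA9, EGLN3 and NDRG1. The libraries of the pair did not overlap for 3 genes, GPI, PFKL and PFKP, all lower in VCS (8.33%, against 5.85% of all genes). Parietal epithelial markers summed to 2939 to 2999.9 CPM in CSA and 2872 to 2935 CPM in VCS, and their part was not tested.

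Between TAC and VCS, 0 of the 36 genes passed (0.0253% of all genes did; DESeq2 also called 0 of the 36), again with a smallest adjusted p of 1.00. An unadjusted p under 0.05 was found for 3 of them (8.33%, against 3.63% of all genes): BNIP3 at 0.26 (SE 0.11), LDHA at 0.25 (SE 0.11) and KDM3A at 0.27 (SE 0.12), each with TAC above VCS. The summed parietal epithelial markers were 2618 to 2755 CPM in TAC and 2872 to 2935 CPM in VCS, without overlap; their part in these differences was not tested. BNIP3, LDHA and KDM3A were also among those lower in CSA than in TAC, and both comparisons use the same TAC libraries. The libraries did not overlap for ALDOA, LDHA, BNIP3 and KDM3A, all lower in VCS, which is 11.1% of the genes against 8.77% of all. The 95% interval lay within 1.5-fold for 30 of the 36 genes.

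The clearest differences in these genes ran along the replicate number that the labels give each library, not along treatment. An earlier report on these data had stated that number 3 stood apart, and the test by number was chosen with that known. With group and number in 1 edgeR model, 16 of the 36 genes (44.4%) differed between the 3 numbers at an adjusted p under 0.05, against 23.6% of all genes. These shares are not matched for level. Ranked by spread within groups among the 1000 genes nearest in level, the list had a median percentile of 51.8. By the sign of number 3 against the mean of numbers 1 and 2, 5 of the 16 were higher (12% of all genes were) and 11 lower (11.6% of all genes were). DESeq2 called 19 of the 36, against 30.2% of the 15929 genes to which it gave an adjusted p, 34 of the 36 among them. The labels do not say that a number marks a day, passage or batch, and the mitochondrial share was higher in the 4 libraries numbered 3 (9.68% to 13.4%, against 5.82% to 8.12%); its part in these differences was not tested.

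PFKFB4 differed most, at a log2 difference of number 3 from the mean of the others of 0.70 (SE 0.08). PFKFB4 had an edgeR adjusted p of 0.00104, which belongs to the test over all 3 numbers and not to this difference. Its 4 libraries numbered 3 were between 244 and 299 CPM, above all 8 others. ADM was higher in number 3 too, at 0.39 (SE 0.05), as were ENO2 at 0.18 (SE 0.05) and KDM3A at 0.18 (SE 0.05). PGAM1 was lower, at -0.39 (SE 0.06), with an edgeR adjusted p over the 3 numbers of 0.0039. Its 4 libraries numbered 3 were between 608 and 711 CPM and the 8 others between 769.9 and 933 CPM.

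Other glycolytic genes lower in number 3 were PFKFB3 at -0.34 (SE 0.08), PGK1 at -0.30 (SE 0.07), HK1 at -0.28 (SE 0.07) and TPI1 at -0.25 (SE 0.06). So were EPAS1 at -0.30 (SE 0.09), PDK1 at -0.24 (SE 0.06) and EGLN1 at -0.21 (SE 0.06). The mean of each of these genes fell in steps from number 1 to 2 to 3. In numbers 1, 2 and 3, PFKFB3 averaged 95.1, 80.1 and 68.8 CPM and PGK1 508, 441 and 385 CPM. EGLN1 averaged 53.9, 48.1 and 43.9 CPM. NDRG1 was at -0.38 (SE 0.09), with an edgeR adjusted p over the 3 numbers of 0.00107. Its contrast, though, was of number 1 against the rest: it averaged 46.5 CPM in number 1, 28.9 in number 2 and 28.2 in number 3. SLC2A1 and CA12 were of the same kind, with means of 247, 183 and 203 and 116, 91.5 and 101 CPM in numbers 1, 2 and 3. BNIP3 passed with a sign of number 3 of only 0.03 (SE 0.05), its means being 149.8, 129 and 142 CPM.

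**Figure D4:**
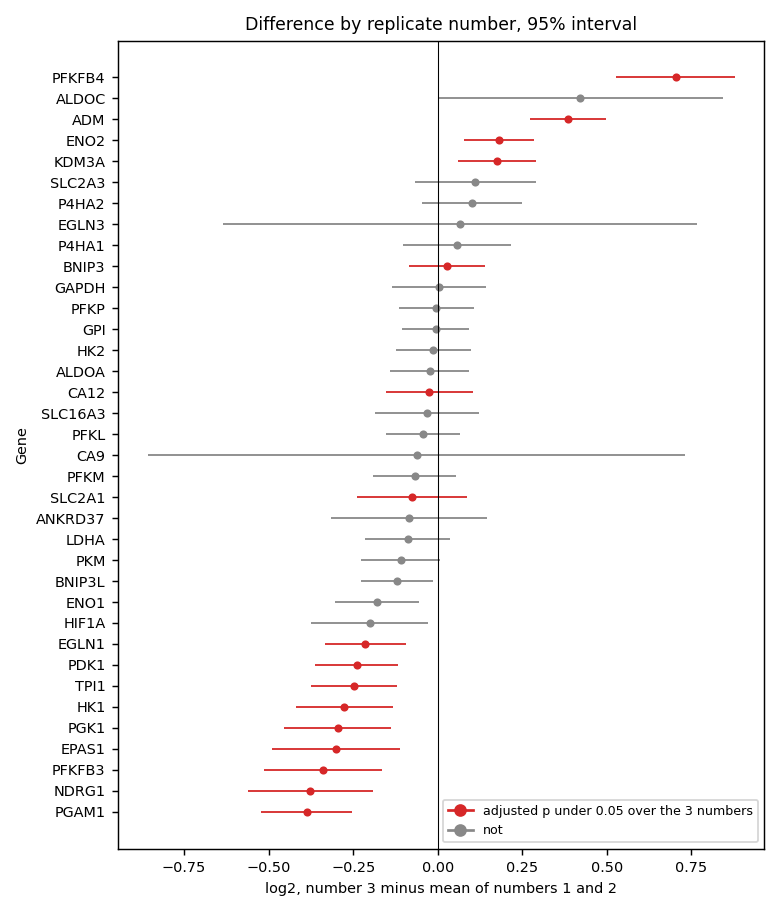
Log2 difference of libraries numbered 3 from the mean of those numbered 1 and 2, with its 95% interval, for each of the 36 genes; red marks an edgeR adjusted p under 0.05 over the 3 numbers. PFKFB4 stands alone on the right at 0.70, while PGAM1 and NDRG1 lie farthest to the left.

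The order of libraries within groups can be read without a model. The library numbered 3 was the highest in all 4 groups for 3 of the 36 genes, PFKFB4, ADM and ENO2 (12.5% of all genes were so), and the lowest in all 4 for 5, PGAM1, ENO1, TPI1, EPAS1 and PDK1 (10.9% of all genes). The library numbered 1 was the highest in all 4 for 6, LDHA, PGK1, SLC2A1, PFKFB3, EGLN1 and NDRG1, where 5.20% of all genes were so. The log2 ratio of PFKFB4 to PFKFB3, per kilobase, was 0.61 to 1.40 in the libraries numbered 1 and 2 and 1.65 to 2.43 in those numbered 3. The calls of PFKFB4, ADM, PGAM1, NDRG1 and PFKFB3 held in each of the 16 alternative analyses of this test; those of HK1, TPI1, PGK1, ENO2, SLC2A1, PDK1, CA12, BNIP3, EGLN1, KDM3A and EPAS1 were lost in at least 1. Without DMSO replicate 1 the count was 6, without VCS replicate 3 it was 9, and without DMSO replicate 3 it was 10. Over all genes the count moved too, from 2341 to 6801 with a library left out, against 4669 with all 12 libraries. The share of all genes is not given for each of these fits.

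**Figure D5:**
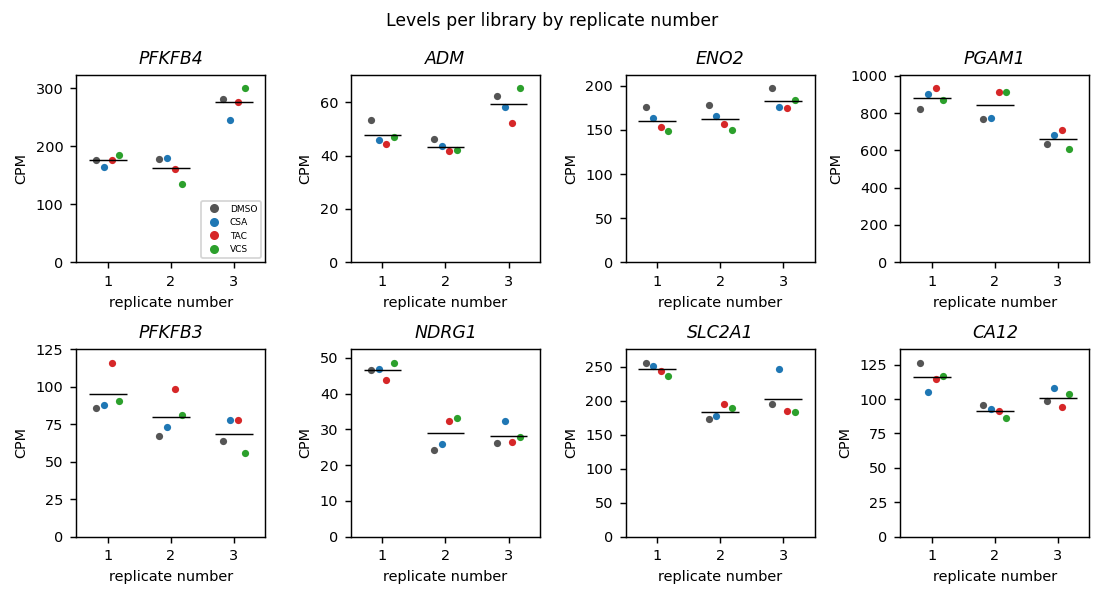
CPM per library (points, colour by group) for 8 genes that differed between replicate numbers, by number, with black lines for the mean of 4 libraries. PFKFB4, ADM and ENO2 are highest and PGAM1 lowest in number 3 of every group, while NDRG1 and SLC2A1 are highest in number 1 of every group and CA12 in 3 of 4.

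Genes of the same pathways outside the list gave a like picture. Of 95 further genes tested, in 7 lists, 0 passed in any treatment comparison. They were 12 HIF pathway proteins, 38 other hypoxia-induced genes, 17 other glycolysis and lactate genes, 14 genes of pyruvate entry to mitochondria, 5 of gluconeogenesis, 7 of the pentose phosphate branch and 2 glucose-responsive thioredoxin binders. Against DMSO the smallest p among them was that of BHLHE40, a HIF-induced repressor, at a log2 difference of 0.37 (SE 0.09) in TAC (edgeR adjusted p = 0.691). ERRFI1, an inhibitor of EGF receptor signalling, was at 0.38 (SE 0.13) in TAC and FAM162A, a mitochondrial HIF target, at -0.39 (SE 0.13) in CSA. HKDC1, a hexokinase-like enzyme, was at -0.35 (SE 0.16) in TAC. Among the HIF regulators the smallest p belonged to CUL2 in TAC at 0.18 (SE 0.11), HIF1AN in CSA at 0.15 (SE 0.11) and VHL in CSA at -0.12 (SE 0.09). In the other lists it belonged to PDHX in TAC at 0.19 (SE 0.09), PCK2 in CSA at 0.32 (SE 0.15), RPE in TAC at 0.11 (SE 0.07) and ARRDC4 in VCS at 0.22 (SE 0.17). None of these passed.

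By replicate number, 34 of the 95 passed, where 23.6% of all genes did (12% higher in number 3 and 11.6% lower). Of the other hypoxia-induced genes 7 of 38 were higher in number 3 and 8 lower. The higher ones were WSB1 at 0.68 (SE 0.10), PPFIA4 at 0.42 (SE 0.07), DDIT4, an inhibitor of mTORC1, at 0.41 (SE 0.05), INSIG2, VEGFA, KDM4B and KLF7. The lower ones were MAFF at -0.62 (SE 0.05), the transferrin receptor TFRC at -0.42 (SE 0.13), AK4, GYS1, ERRFI1, GBE1, ZNF395 and ANGPTL4. Of the other glycolysis and lactate genes 5 of 17 were higher, among them BSG, the chaperone of the lactate transporters, at 0.37 (SE 0.06), with ENO3, SLC2A12, HKDC1 and ADPGK, and 3 lower, PGM1, PGM2 and LDHB.

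The HIF pathway list had 4 of 12 lower in number 3, with CITED2 at -0.35 (SE 0.06) beside CREBBP, CUL2 and HIF1AN. Pyruvate entry had 3 of 14 lower, DLAT at -0.35 (SE 0.06), DLD and MPC2. Gluconeogenesis had 2 of 5, PCK2 lower and G6PC3 higher. Both thioredoxin binders were higher, TXNIP at 0.28 (SE 0.06) and ARRDC4 at 0.22 (SE 0.07). The pentose phosphate branch had 0 of 7 in edgeR, with 2 at an unadjusted p under 0.05.

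For most reactions with several enzymes, 1 form held most of the transcript per kilobase. ENO1 was 7.77 times ENO2, EGLN1 was 151 times EGLN3 and PFKFB4 was 2.48 times PFKFB3. BNIP3L was 1.19 times BNIP3 and P4HA2 was 1.11 times P4HA1, the 2 nearly even pairs. The log2 ratio of P4HA2 to P4HA1 was -0.04 ± 0.04 in TAC, 0.17 ± 0.06 in DMSO, 0.28 ± 0.16 in CSA and 0.21 ± 0.07 in VCS (SD, n = 3), and its TAC libraries lay below all others. That of PFKM to PFKL was -2.21 ± 0.05 in DMSO and -2.24 ± 0.02 in CSA but -2.0 ± 0.06 in TAC and -2.05 ± 0.06 in VCS; TAC and VCS lay above DMSO and CSA without overlap. These ratios were not tested, and exons of all annotated isoforms enter the length.

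The spread within groups was small for most of the list. The SD of log2 CPM, pooled over the 4 groups, had a median of 0.16 over the 36 genes and of 0.22 over all genes. Ranked among the 1000 genes nearest in level, the list had a median percentile of 51.8. GPI, PFKP, ALDOA, HK2 and PFKL were among the least variable genes of their level, at percentiles 0.8 to 4.4, and PFKFB4 at 99.6 and NDRG1 at 98.9 among the most variable. For 16 of the 36 genes the table also held pseudogenes named after them, 154 in all, among which Salmon could split reads. Their counts came to at most 1.61% of the counts of gene and pseudogenes together, for BNIP3 with 44 pseudogenes, except for EGLN3, where they reached 36.8% at its low counts. For 21 of the 36 genes the annotation has a gene on the opposite strand.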

How the data were processed

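Poly(A) RNA was sequenced from 12 libraries in 4 groups of 3, as the labels group them. The deposited table holds 1 whole number per gene and library, read here as estimated counts rounded by the authors, since the submitters' processing notes name Salmon and GRCh38, without versions. Library totals differ, so no normalization by the authors was seen. Per the labels, in-line UMIs were used, but whether they were collapsed is not stated, so errors cover the spread between libraries and not the counting of molecules.

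Of 62262 genes, 22339 had no count and 19784 passed edgeR's filterByExpr (version 4.0.16, R 4.3.3) at a minimum count of 10. Counts were scaled by TMM and fitted over all 12 libraries with edgeR's quasi-likelihood model, on group alone, which leaves 8 residual degrees of freedom. Replicate numbers were tested in a model of group and number, which leaves 6. All p-values are two-sided and adjusted by Benjamini-Hochberg over all genes tested, with a threshold of 0.05. Log2 CPM used a prior count of 2. Code was tested on simulated data. Symbols matched 62252 identifiers; positions, exon lengths and overlaps came from GENCODE on GRCh38, and promoters from RefSeq on GRCh38.p14.

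Values in all libraries are printed for a set list of HIF subunits, enzymes and hypoxia markers, for members past the threshold, and for those with the 3 smallest p in each test against DMSO, in the 4-group test and for replicate number. BNIP3L and SLC16A3 were added after their values were seen. From the further lists, genes past the threshold and up to 3 per list with the smallest p against DMSO were eligible; 2 listed genes are not reported here. The 36 genes, the further lists, the rule and the test of replicate numbers were chosen with earlier results of these data known. The alternatives were RLE size factors, no filter on low counts, robust estimation of the spread, DESeq2 1.42.0, a fit to just those libraries being compared, the number entered as a replicate block, no libraries numbered 3, and each library left out in turn.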

Additional observations from a re-analysis of the deposited data

How the results depend on the processing

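With 3 libraries a group, changes under about the widths of the intervals given above cannot be seen, and CA9, EGLN3 and ALDOC are limited by their counts. In the 8 treatment tests the count of the 36 genes past the threshold was 0 under each alternative run, with 1 exception. With the replicate block, 1 of the 36 genes (2.78%) passed between CSA and TAC, BNIP3 at -0.38 (SE 0.07, edgeR adjusted p = 0.0446, and 0.0446 to 0.936 over its alternatives). Of the 19784 genes tested, 65 passed with the block and 6 without it. The numbers do not pair the libraries by the labels. Deviations of same-numbered libraries from their group means correlated at 0.00694 to 0.532 over 18 pairs, those of other numbers at -0.427 to 0.263, and 11 of 12 libraries correlated best with their own number. The block gave 6, 41, 0, 6, 41, 3 and 34 genes over the transcriptome for CSA, TAC and VCS against DMSO, CSA against VCS, TAC against VCS, the mean of the inhibitors and any difference, against 2, 7, 1, 2, 5, 2 and 10, and changed no other call of the 36 genes. At an unadjusted p under 0.05 the block gave 7, 8, 5, 11, 4, 5, 7 and 10 of the 36 genes for CSA, TAC and VCS against DMSO, CSA against TAC, CSA against VCS, TAC against VCS, the mean and any difference, against 2, 2, 0, 7, 1, 3, 1 and 1 without it. The shares of all genes under the block were 11.4%, 13.1%, 11%, 15.9%, 6.29%, 7.88%, 12.9% and 14%.

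Over all genes, CSA, TAC and VCS against DMSO, CSA against TAC, CSA against VCS, TAC against VCS, the mean and any difference gave 86, 131, 69, 87, 70, 101, 89 and 285 calls with no filter on low counts. In the same order DESeq2 gave 7, 34, 7, 48, 12, 36, 7 and 67, and the fit without the 4 libraries numbered 3 gave 0, 3, 1, 1, 6, 9, 0 and 7. Fitted on only the groups compared, the 6 pairwise counts were 2, 1, 0, 1, 3 and 0. Robust estimation gave 2, 7, 0, 5, 1, 8, 1 and 10. The cause was not tested.

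The median log2 difference of the 36 genes between CSA and TAC was -0.058 without the 4 libraries numbered 3. With each library left out in turn, medians ran from -0.025 to 0.085 for CSA against DMSO (highest without CSA replicate 2; 0.08 without DMSO replicate 1), from -0.067 to 0.061 for VCS against DMSO (highest without DMSO replicate 1; 0.03 without VCS replicate 3), and from -0.025 to 0.070 for CSA against VCS (highest without CSA replicate 2; 0.04 without VCS replicate 1). They ran from -0.0040 to 0.089 for TAC against VCS (highest without VCS replicate 1) and from -0.027 to 0.070 for the mean (lowest without DMSO replicate 2).

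For replicate numbers, the count of the 36 genes ran from 6 without DMSO replicate 1 to 19 without CSA replicate 3, with 9 without VCS replicate 3 and 10 without DMSO replicate 3; over all genes it ran from 2341 to 6801, against 4669. The log2 difference of number 3 ran from -0.078 to 0.019 for CA12, turning sign without DMSO replicate 3 (0.019) and without TAC replicate 3 (0.0060), and from -0.0057 (without TAC replicate 3) to 0.069 for BNIP3. In these fits and in the one without DMSO replicate 1, a group has 2 libraries.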
